A study of Mus musculus with 32 samples.

Results

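The genes described here are the transcription factor NRF2, encoded by Nfe2l2, and 9 genes of antioxidant defence, namely Nqo1, Gclc, Gclm, Txnrd1, Srxn1, Sod1, Sod2, Gpx1 and Gpx4. They were chosen by name, as the rows of the count table whose Ensembl identifier maps to these symbols, and make up 10 of the 50686 genes in the table. Each symbol matched 1 row, and all 10 passed the filter on low counts.

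The tissue was interscapular brown fat (iBAT), which burns fuel for heat and lies between the shoulder blades, of C57BL/6J mice aged 10 weeks. Per the methods of the study these were male, chow-fed and kept at 22 °C with 12 h of light and 12 h of dark. Time is given as Zeitgeber time (ZT) in hours from lights on. The groups were 8 time points at intervals of 3 h from ZT0 to ZT21, with 4 mice and 1 library per mouse at each. No mouse of the 32 carried an allele or a treatment in the labels. The groups differed in time of day and, between some of them, in sequencing lane, as given below.

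NRF2 is a leucine zipper transcription factor. In unstressed cells KEAP1 holds it in a ubiquitin ligase complex and it is degraded, whereas oxidants and electrophiles modify KEAP1 so that NRF2 accumulates, pairs with small MAF proteins and binds antioxidant response elements (AREs). Its regulation is thus largely at the level of the protein, which RNA does not measure. Brown adipocytes are rich in mitochondria, whose respiration during heat production gives rise to superoxide and hydrogen peroxide.

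The 10 genes fall into 4 roles. Nfe2l2 is the regulator. Nqo1, which reduces quinones, Gclc and Gclm, the catalytic and modifier subunits of the ligase that limits glutathione synthesis, Txnrd1, the cytosolic thioredoxin reductase, and Srxn1, the sulfiredoxin that repairs overoxidised peroxiredoxins, are well-known ARE genes. Sod1 and Sod2 are the cytosolic and the mitochondrial superoxide dismutase. Gpx1 and Gpx4 are selenium-dependent glutathione peroxidases, of which Gpx4 reduces lipid peroxides within membranes.

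NRF2 acts through the ARE, and the promoter windows of the 10 genes were searched for its letters. In RefSeq (GRCm38.p6), 14 start-site windows from 250 bases upstream to 50 bases downstream were listed for 9 of the 10 genes, all but Gclc. The letters of the ARE core (TGACNNNGC, either strand) occurred in 5 of the 14 windows, 1 each of Nfe2l2, Srxn1, Gclm, Txnrd1 and Sod1, and in 12.4% of all 32851 windows of the table. The form with G (TGAGNNNGC) occurred at a pair of positions in Srxn1 and in 17.6% of all windows. The AP-1 letters (TGANTCA) were found in Srxn1 alone, at positions -102 and -45, against 7.81% of all windows, and at -45 they overlap the G form of the ARE. None of the windows held the E-box CACGTG (7.15% of all windows) or the D-box TTATGTAA (0.938%), the letters read by core clock factors. The stretches that hold the ARE letters follow, 5′ to 3′ on the strand of the gene, with the matching letters in capitals. A match is a description of the letters and not a binding site.
Nfe2l2, chr2:75704880-75704913, minus strand, match at -240: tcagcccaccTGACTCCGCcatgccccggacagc
Srxn1, chr2:152105351-152105389, plus strand, match at -158: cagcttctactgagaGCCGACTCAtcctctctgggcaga
Srxn1, chr2:152105464-152105502, plus strand, match at -45: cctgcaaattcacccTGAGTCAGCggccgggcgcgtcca
Srxn1, chr2:152105537-152105573, plus strand, match at 29: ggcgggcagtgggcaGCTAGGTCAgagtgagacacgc
Gclm, chr3:122245408-122245446, plus strand, match at -134: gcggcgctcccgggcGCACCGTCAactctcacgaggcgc
Txnrd1, chr10:82859099-82859137, plus strand, match at -92: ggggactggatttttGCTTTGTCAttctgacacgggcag
Sod1, chr16:90220691-90220729, plus strand, match at -56: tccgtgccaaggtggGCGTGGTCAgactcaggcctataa

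Total counts per library lay between 16300770 and 18254659. The 12 brown adipocyte markers, Ucp1 among them, were detected in every library and summed to between 4999 and 9097 CPM (counts scaled to a common library total, here with TMM factors). Skeletal muscle markers, summed over 11 genes, ran from 4.18 to 7575 CPM between libraries of the same pads, and 5 libraries (ZT0 replicate 3, ZT3 replicate 2, ZT12 replicate 2, ZT15 replicate 1 and ZT18 replicate 4) were above 5000 CPM. Macrophage markers were highest in ZT9 replicate 3, at 365 CPM. Mitochondrially encoded genes took 18.5 to 28.2% of all counts. Sequencing lane 2 held ZT0 to ZT6, lane 3 held ZT9 to ZT15 and lane 4 held both later time points, so that between lanes, lane and time of day cannot be told apart.

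The first question was how much of each transcript brown fat holds. Per kilobase of exon, the enzymes that act directly on superoxide and peroxides were the most abundant, with a mean over all libraries of 151 CPM per kb for Gpx1, 111 for Gpx4, 77.1 for Sod1 and 58.4 for Sod2. The regulator Nfe2l2 had 22.8 CPM per kb, close to Srxn1 with 18.9 and Txnrd1 with 13.0. Both subunits of glutamate-cysteine ligase were lower, at 7.11 CPM per kb for Gclc and 4.57 for Gclm. Nqo1, often used as the readout of NRF2 activity, was the lowest at 1.04 CPM per kb, and its raw counts per library ran from only 13 to 57. The exonic length counts every annotated exon of the gene, 10008 bases for Sod2 and 1441 for Gpx1, and therefore understates genes with long alternative ends. Of the 100-base stretches of Gpx4 transcripts, 74.8% were found in no other annotated gene, the others being shared with Gpx4-ps2 and AC122253.3, and for Sod2 the share was 87.2%, so reads of these copies cannot be separated with certainty.

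**Figure D1:**
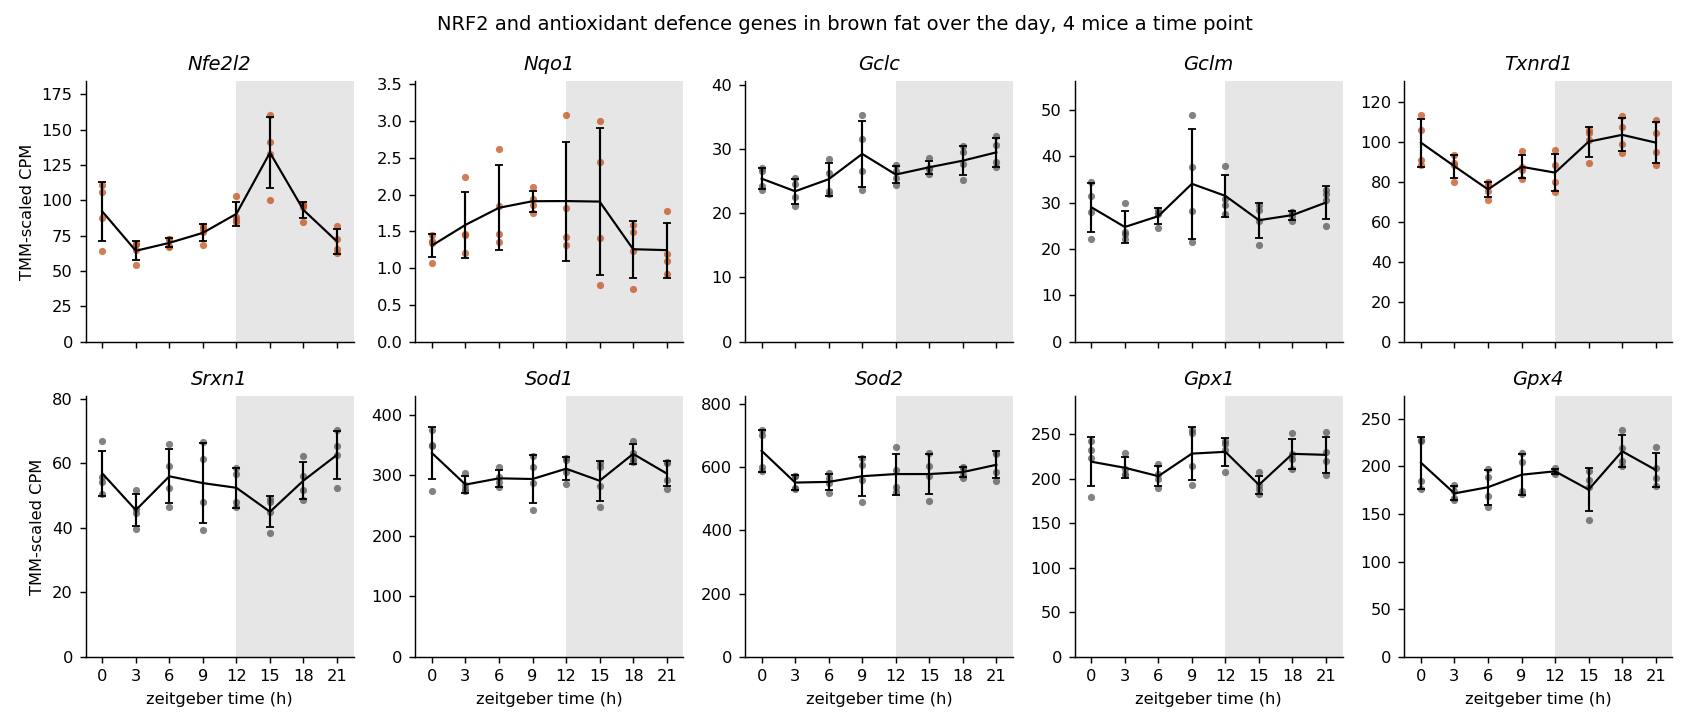
TMM-scaled CPM (y axis, from 0, own scale in each panel) of the 10 genes against Zeitgeber time in hours (x axis). Points are mice, the line joins the means of 4 mice with SD as bars, grey shading marks the dark phase, and orange points mark the genes with an adjusted p under 0.05 in the 24 h cosine test. Nfe2l2 rises to 134 CPM at ZT15 from 64.3 CPM at ZT3, and Txnrd1 is lowest at ZT6. For the 4 Sod and Gpx genes the ratio of the highest to the lowest mean is 1.18 to 1.26.

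The second question was which of these transcripts follow the time of day. Nfe2l2 and Txnrd1 did in every test of a daily rhythm, both with a peak in the dark phase. Nqo1 passed some of the tests, with a peak late in the light phase, and for the other 7 genes no 24 h rhythm was detected. By the JTK test used in the study, a rank test against cosine curves, 3 of 10 genes had P under 0.05 (Nfe2l2, Nqo1 and Txnrd1) against 36.4% of all 15505 genes tested. With Benjamini-Hochberg (BH) adjustment over all genes 2 of 10 remained, Nfe2l2 and Txnrd1, against 27.1%. A 24 h cosine in edgeR's quasi-likelihood test called the same 3 genes at adjusted p under 0.05, where 36.1% of all genes were called. The share of rhythmic genes among the 10 was therefore close to that in the transcriptome at large. Their median amplitude, the distance from mean to peak, was 0.08 on the log2 scale, below the 0.14 of all genes tested.

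A test of any difference between the 8 time points, which assumes no shape, called Nfe2l2, Txnrd1 and Gclc, 3 of 10 against 39.8% of all genes. Beside lane as a factor the cosine was called for 2 of 10 (Nfe2l2 and Txnrd1), against 17.2% of all genes. No gene of the 10 had a 12 h component beside the 24 h one, and 0.464% of all genes did.

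**Figure D2:**
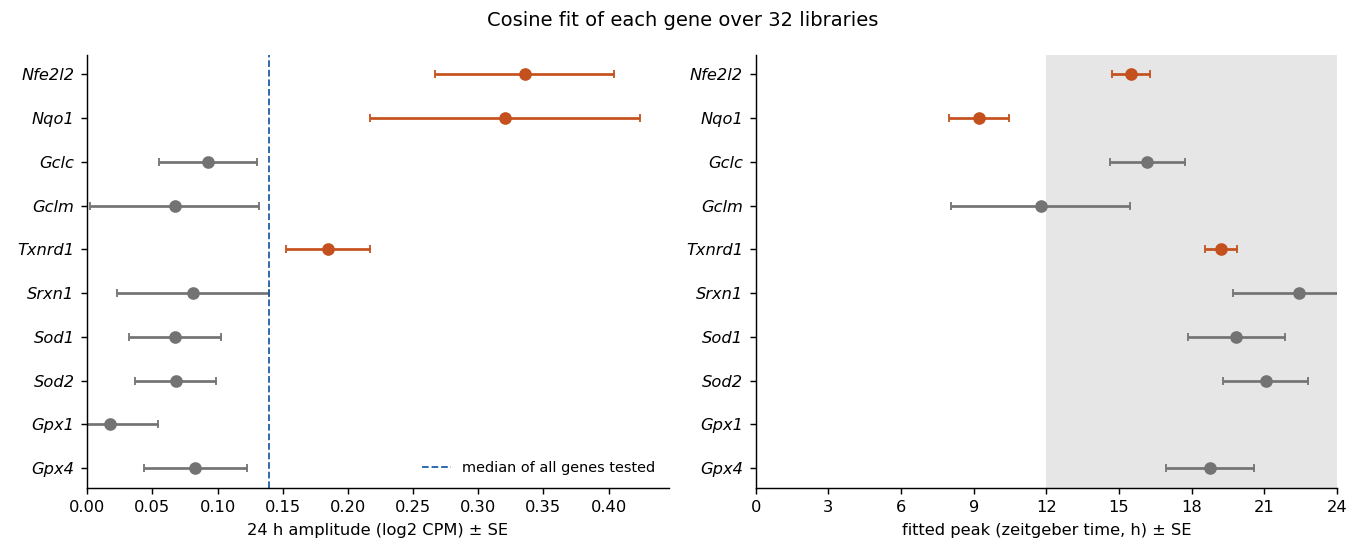
Left, amplitude of the 24 h cosine (log2 CPM, x axis) with SE for each gene, and the median over all genes tested as a dashed line. Right, fitted peak in Zeitgeber hours with SE, dark phase shaded. Orange marks adjusted p under 0.05. The peak of Gpx1 is left out because its SE was 8.02 h, and the bar of Srxn1 runs past 24 h. Nfe2l2 and Nqo1 have the largest amplitudes, 0.34 and 0.32, and 7 genes lie below the median of all genes.

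Nfe2l2 (ENSMUSG00000015839, GRCm38, chr2:75675513-75704641, minus strand), the regulator, had the lowest adjusted p of the 10 in the test of any difference between time points. From ZT3 to ZT9 its levels were low and close together. The 4 mice of ZT3 had 68.9, 54.6, 69.1 and 64.7 CPM, those of ZT6 had 72.6, 67.0, 72.7 and 67.4 CPM, and those of ZT9 had 77.7, 68.2, 81.8 and 80.2 CPM. The level was higher at the start of the dark phase. At ZT12 the mice had 103, 84.7, 87.9 and 86.1 CPM, all above the 4 mice of ZT9. At ZT15 they had 100.2, 133, 160.3 and 141 CPM. Of these, 3 exceeded every mouse of every other time point, and the exception, replicate 1, is a library with 7575 CPM of muscle markers and the lowest sum of brown adipocyte markers of all 32. By ZT18 the values had returned to 96.7, 96.4, 95.0 and 84.6 CPM, and by ZT21 to 65.5, 72.9, 63.1 and 82.0 CPM. At ZT0 the mice disagreed, with 111, 87.7, 106 and 64.3 CPM.

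The mean of Nfe2l2 thus went from 64.3 ± 6.78 CPM at ZT3 to 134 ± 25.1 CPM at ZT15 (SD, n = 4 each), a ratio of 2.08, and the mice of these times did not overlap. Ordered by mean, ZT15 lay above ZT18, ZT0, ZT12, ZT9, ZT21, ZT6 and ZT3. Neighbours in this order whose mice did not overlap were ZT15 and ZT18, and ZT12 and ZT9. ZT18, ZT0 and ZT12, as well as ZT9, ZT21, ZT6 and ZT3, differed from their neighbour by less than the larger SD of the pair. The fitted amplitude was 0.34 (SE 0.07, log2) with the peak at ZT 15.5 (SE 0.78 h), and the adjusted p was 6.7e-04 for the cosine and 8.0e-06 for any difference between time points (edgeR, BH). With lane as a factor the adjusted p was 2.2e-05, while the amplitude became 0.62, a size that depends on how levels are joined across lanes.

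Within lanes, where lane cannot enter, Nfe2l2 differed between the time points of lane 3 (ZT9, ZT12 and ZT15, adjusted p = 0.0187, against 1.93% of genes called) and of lane 4 (ZT18 and ZT21, adjusted p = 0.0386, against 4.48%). Over the time points of lane 2 (ZT0, ZT3 and ZT6) its adjusted p was 0.0538, where 13.3% of genes were called, and this became 0.00304 without ZT0 replicate 4, the mouse with 64.3 CPM, and 0.16 without ZT0 replicate 1. The call in lane 3 was lost without ZT15 replicate 2, 3 or 4 (adjusted p = 0.0511, 0.0728 and 0.0836). That in lane 4 was lost without any 1 of ZT18 replicates 1 to 3 and ZT21 replicates 1 to 3 (0.0773 to 0.104).

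Changes from each time point to the next located the movement. Among the 10 genes only Nfe2l2 passed the test in the fit of all libraries, over 3 of the 8 steps. Fitted on the 8 libraries of a step alone, none of these 3 passed (adjusted p = 0.0778, 0.106 and 0.129 in the order of the day), at sizes of -0.515, 0.562 and -0.524. The fall from ZT18 to ZT21 did (-0.39, adjusted p = 0.0386), where 4.48% of genes were called. That is the lane 4 test given above, with the same losses. In the fit of all libraries Nfe2l2 fell by 0.52 on the log2 scale (SE 0.13, adjusted p = 0.0106) from ZT0 to ZT3, a step at which 13.8% of all genes were called. Without ZT0 replicate 4 this adjusted p was 0.000616, and that of ZT0 against ZT21 (0.38, SE 0.13) went from 0.0765 to 0.00606. The latter went to 0.261 without ZT0 replicate 1, and that step passed in 2 of the 32 fits without 1 library. From ZT12 to ZT15 Nfe2l2 rose by 0.56 (SE 0.13, adjusted p = 0.0166), where 3.04% were called, and this was the only rise called. From ZT15 to ZT18, across lanes 3 and 4, it fell by 0.52 (SE 0.13, adjusted p = 0.0478), where 1.17% were called. The first fall went to an adjusted p of 0.0547 without ZT0 replicate 1 and 0.0501 without ZT0 replicate 3, and to 0.0927 without the 5 libraries rich in muscle markers, a setting in which its size was -0.37. The rise went to 0.0778 without ZT15 replicate 3, 0.0603 without ZT15 replicate 4 and 0.0596 without ZT12 replicate 2. The later fall held in 14 of the 32 fits that left out 1 library, with an adjusted p of up to 0.144 without ZT15 replicate 3, and was lost with the replicate number as a block (0.0533).

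In the fit of all libraries the other steps gave no call for any of the 10 genes. At ZT0 against ZT21, 7.72% of all genes were called, at ZT6 against ZT3 2.08%, at ZT9 against ZT6 1.95% and at ZT21 against ZT18 2.06%. From ZT9 to ZT12 no gene was called (0.0%), although 1047 genes had an unadjusted p under 0.05. Nfe2l2 was 0.23 higher (log2, SE 0.13, adjusted p = 0.799) at that step.

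**Figure D3:**
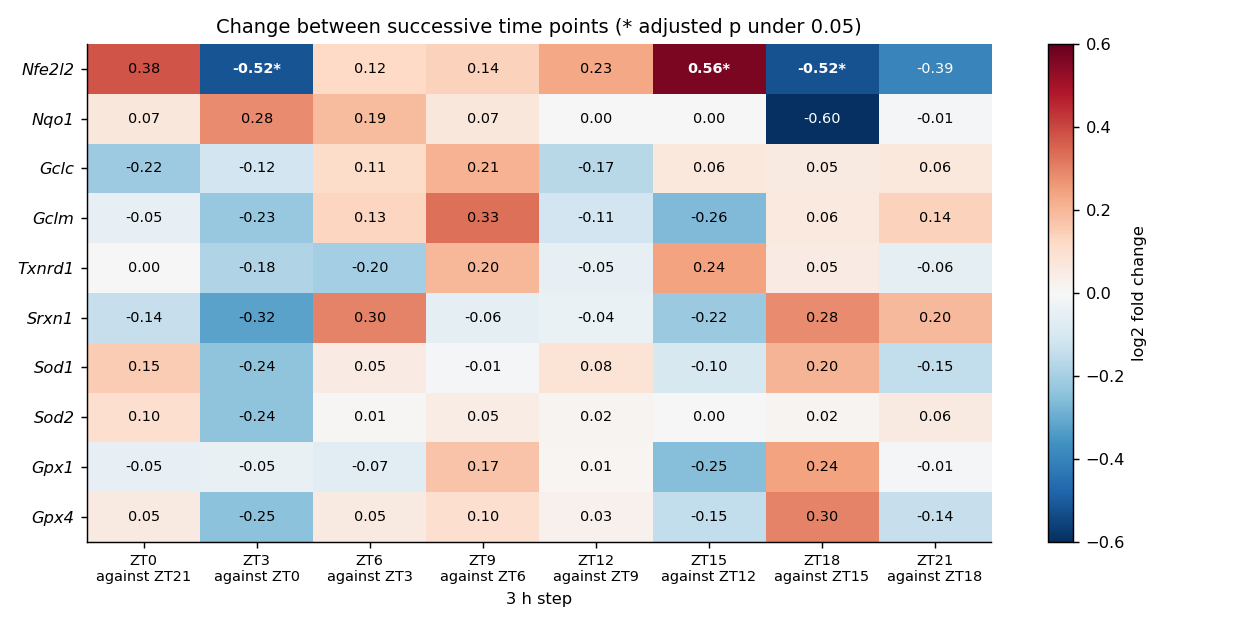
Log2 fold change of each gene (rows) from one time point to the next (columns), as colour and number. Bold values with a star have adjusted p under 0.05. The 3 starred values all belong to Nfe2l2, at -0.52, 0.56 and -0.52.

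Markers of other cells moved over the same steps. From ZT0 to ZT3 the sum of 6 stroma markers went from 519 ± 78.2 to 920 ± 167 CPM and that of 10 macrophage markers from 87.0 ± 16.3 to 150 ± 33.2 CPM (SD, n = 4 each). Lymphoid markers went from 10.1 ± 3.01 to 16.0 ± 2.75 CPM and blood markers from 689 ± 165 to 427 ± 128 CPM. Of the stroma markers 5 of 6 rose at this step (Col1a1, Col1a2, Col3a1, Dcn and Pdgfra), and 2 of 10 macrophage markers did (Csf1r and Mrc1), beside 13.8% of all genes called. Of the 12 brown adipocyte markers Cox7a1 alone was called, and it fell (-0.37, adjusted p = 0.0203). Of 7 endothelial markers Egfl7 rose (0.42, adjusted p = 0.0450) and Emcn fell (-0.48, adjusted p = 0.00092). From ZT12 to ZT15 the sum of 7 endothelial markers went from 723 ± 30.1 to 846 ± 62.7 CPM, and that of 12 brown adipocyte markers from 7265 ± 1409 to 6126 ± 752 CPM. Of the endothelial markers Kdr alone was called (0.45, adjusted p = 0.0036), and of the brown adipocyte markers Prdm16 alone (-0.79, adjusted p = 0.0376), beside 3.04% of all genes. The brown adipocyte sums overlapped, with 6008 to 9053 CPM at ZT12 and 4999 to 6535 CPM at ZT15. Muscle markers were also higher on average at ZT15, at 3603 ± 3175 CPM against 2379 ± 3342 CPM at ZT12 (SD, n = 4 each). Within time points the r of Nfe2l2 with muscle markers was -0.39 (rho = -0.368, adjusted p = 0.0792 over 110 relations). With lymphoid markers it was -0.41 (rho = -0.306, adjusted p = 0.0936) and with stroma markers -0.58 (rho = -0.513, adjusted p = 0.0125). Leaving out the 5 muscle-rich libraries, a choice made after seeing the data, gave an amplitude of 0.37 for Nfe2l2 (adjusted p = 6.0e-04) and a rise of 0.65 from ZT12 to ZT15 (adjusted p = 0.0160). White fat markers summed to 199.9 ± 37.5 CPM at ZT12, 258 ± 66.5 CPM at ZT15 and 192 ± 37.4 CPM at ZT18, where muscle markers averaged 1846 ± 2498 CPM (SD over 4 mice). No white fat marker was called over these steps. The list includes Lep, which the paper lists as oscillating in this tissue, while Hoxc9 and Hoxc10 had 5 and 3 reads over all libraries. Its sum is therefore not a measure of white fat content alone. From ZT18 to ZT21 the endothelial sum went from 879 ± 53.4 to 775 ± 4.66 CPM. Of its 7 markers only Emcn (-0.47, adjusted p = 0.0061) and Kdr (-0.33, adjusted p = 0.0364) were called lower, beside 2.06% of all genes called. White fat markers averaged 110.1 ± 35.7 CPM at ZT21. The part of the muscle, stroma, macrophage, lymphoid, blood, endothelial, brown adipocyte and white fat markers in the changes of Nfe2l2 was not tested. In bulk tissue, fewer cells of a type and less RNA per cell cannot be told apart.

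Txnrd1 (ENSMUSG00000020250, chr10:82833951-82897712, plus strand), the reductase that keeps thioredoxin reduced, had a smaller and broader rhythm. It was lowest at ZT6, where the mice had 78.5, 79.8, 75.6 and 71.2 CPM. At ZT18 it was highest, with 113, 108, 94.6 and 99.2 CPM. These 2 groups, picked as the extremes of the 8 means, did not overlap, and the ratio of their means (103.6 ± 8.24 and 76.3 ± 3.81 CPM, SD, n = 4 each) was 1.36. White fat markers summed to 67.4 ± 11.6 CPM at ZT6 and 192 ± 37.4 CPM at ZT18, and brown adipocyte markers to 7070 ± 1126 and 5753 ± 528 CPM. The part of these markers in the change of Txnrd1 was not tested. From ZT15 through ZT0 the level stayed on a plateau with means between 99.7 and 103.6 CPM, and none of the neighbours in the order of means was free of overlap. The amplitude was 0.18 (SE 0.03, log2) with a peak at ZT 19.2 (SE 0.67 h) and adjusted p = 2.7e-04, which became 0.0040 beside lane. Within lane 2 it differed between ZT0, ZT3 and ZT6 (adjusted p = 0.0317). This was lost without ZT0 replicate 1 or 3, ZT3 replicate 4 or any 1 mouse of ZT6 (0.0510 to 0.0845). In lanes 3 and 4 its adjusted p was 0.306 and 0.782. No 3 h step passed the test with TMM scaling. The step from ZT12 to ZT15, 0.24 (SE 0.09), had adjusted p = 0.137, and 0.0324 when scaled by library size alone.

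Nqo1 (ENSMUSG00000003849, chr8:107388225-107403206, minus strand) had few reads, and mice of the same time point differed widely. The 4 mice had between 1.07 and 1.45 CPM at ZT0, 1.75 and 2.10 at ZT9, 0.768 and 3.00 at ZT15, and 0.716 and 1.58 at ZT18. The mean went from 1.25 ± 0.374 CPM at ZT21 to 1.91 ± 0.809 CPM at ZT12 (SD, n = 4 each), and the mice of these times overlapped. The cosine had an amplitude of 0.32 (SE 0.10, log2), a peak at ZT 9.2 (SE 1.24 h) and adjusted p = 0.0401. This call did not hold beside lane (adjusted p = 0.639), in the test of any difference between time points (0.305) or in any lane alone, and it was kept in 22 of the 32 fits without 1 library, with an adjusted p between 0.0523 and 0.0852 in the other 10, the highest without ZT12 replicate 2. It was also lost without a filter on low counts (0.0702). The JTK call was kept in 18 of the 32 fits, with P up to 0.0844.

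The subunits of glutamate-cysteine ligase showed little that was tied to time. Gclc (ENSMUSG00000032350, chr9:77754535-77794485, plus strand) ranged from 23.4 ± 1.97 CPM at ZT3 to 29.5 ± 2.28 CPM at ZT21 (SD, n = 4 each), and these mice did not overlap. It was called between time points at an adjusted p of 0.0498, which lay just under the threshold and held in only 7 of the 32 fits without 1 library (up to 0.112 without ZT3 replicate 2). DESeq2 size factors (0.0576), removal of mitochondrially encoded genes (0.0552), no filter on low counts (0.103), the replicate block (0.0537) and leaving out the muscle-rich libraries (0.1698) each ended it. Its cosine had an amplitude of 0.09 (SE 0.04) and an adjusted p of 0.151, which became 0.0377 without ZT9 replicate 1 and 0.279 without ZT3 replicate 2. The cosine passed in 1 of the 32 fits without 1 library. Gclm (ENSMUSG00000028124, chr3:122245557-122270732, plus strand) was highest at ZT9, where the mice had 48.9, 37.7, 21.6 and 28.1 CPM, that is, both the highest value of all 32 libraries and one of the lowest. At ZT18, in contrast, the 4 mice lay between 26.0 and 28.0 CPM. Its adjusted p was 0.562 for the cosine and 0.256 between time points. The latter became 0.0345 without ZT9 replicate 3, the mouse with 21.6 CPM of Gclm and the most macrophage markers. Without ZT9 replicate 1 it was 0.417, and 1 of the 32 fits without 1 library passed. In Gclm, 296 exonic bases (4.71%) overlap the antisense gene Gm17494 and 244 (3.88%) overlap Gm6061. The use of strand in the counting is not given in the sources used here.

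Srxn1 (ENSMUSG00000032802, chr2:152105516-152111376, plus strand) went from 44.98 ± 4.79 CPM at ZT15 to 62.6 ± 7.52 CPM at ZT21 (SD, n = 4 each), with the 4 mice of ZT15 (38.3, 48.0, 44.9 and 48.8 CPM) below the 4 of ZT21 (62.6, 70.3, 52.4 and 65.2 CPM). Its level at ZT3, 45.5 ± 4.86 CPM, differed from that at ZT15 by less than the SD. The adjusted p between time points was 0.0624 and that of the cosine 0.491, so that Srxn1 was not called. With library size alone and with DESeq2 the adjusted p between time points was 0.0264 and 0.0346, and with the replicate block 0.0462.

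The superoxide dismutases differed little over the day. Sod1 (ENSMUSG00000022982, chr16:90220754-90226329, plus strand) had time-point means between 285 and 337 CPM and Sod2 (ENSMUSG00000006818, chr17:13006846-13040063, plus strand) between 552 and 652 CPM, each lowest at ZT3 and highest at ZT0. The mice of these times overlapped for Sod1 but not for Sod2. From ZT0 to ZT3 the log2 change was -0.24 for both (SE 0.09, adjusted p = 0.0760 for Sod1 and 0.0657 for Sod2). Without ZT0 replicate 4, the mouse with 274 CPM of Sod1 where its 3 mates had 348 to 375 CPM, these became 0.0114 and 0.0373, and the same step of Gpx4 went from 0.0864 to 0.0302. Other mice moved it the other way, to 0.217 for Sod1 (without ZT0 replicate 2), 0.198 for Sod2 (replicate 1) and 0.254 for Gpx4 (replicate 3). Of the 32 fits without 1 library, the step passed in 1 for Sod1, 3 for Sod2 and 1 for Gpx4. Their amplitudes were 0.07 (SE 0.04) and 0.07 (SE 0.03).

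The selenium-dependent peroxidases had small amplitudes as well. Gpx1 (ENSMUSG00000063856, chr9:108338903-108340343, plus strand) had means between 193 and 230 CPM and the smallest amplitude of the 10 genes, 0.02 (SE 0.04, adjusted p = 0.915). The mice of its highest and lowest times, ZT12 and ZT15, did not overlap, and its step between them was -0.25 (SE 0.09, adjusted p = 0.127). Gpx4 (ENSMUSG00000075706, chr10:80047166-80056439, plus strand) had means between 172 ± 7.30 CPM at ZT3 and 216 ± 17.0 CPM at ZT18 (SD, n = 4 each), an amplitude of 0.08 (SE 0.04) and an adjusted p of 0.188 for the cosine and 0.0661 between time points. The latter was 0.0374 with library size alone, 0.0344 with DESeq2 and 0.0449 with the replicate block. Their steps from ZT15 to ZT18 were 0.24 (SE 0.09, adjusted p = 0.197) and 0.30 (SE 0.10, adjusted p = 0.136).

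The third question was whether the genes vary together between mice of the same time point, where neither time of day nor lane differs. Deviations of log2 CPM from the time-point mean were compared for all 45 pairs by permuting mice within time points (100000 permutations, two-sided, BH over the pairs). With TMM scaling 27 pairs passed, each with a positive r, and 24 passed by Spearman's rho. The pairs with the highest r were Gclm with Sod1 (r = 0.82, rho = 0.731, adjusted p = 0.0003), Gclm with Gpx1 (r = 0.80, rho = 0.749, adjusted p = 0.000225) and Gclm with Srxn1 (r = 0.79, rho = 0.730, adjusted p = 0.000225). Within lanes 2, 3 and 4 the r of Gclm with Sod1 was 0.72, 0.91 and 0.63, and without the 2 mice farthest from the median it was 0.82. Nfe2l2 passed with Txnrd1 (r = 0.57, rho = 0.528, adjusted p = 0.0163, and 0.75, 0.55 and 0.25 within lanes), Sod2 (r = 0.50, adjusted p = 0.0462) and Gclm (r = 0.46, adjusted p = 0.0361), and by rho with Txnrd1 alone. Its r with Srxn1 was 0.37 (rho = 0.348, adjusted p = 0.0574), and Nqo1 had a negative r with each of the other 9 genes, none of which passed.

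How far these genes moved together depended on the scaling. With library size alone 6 pairs passed, Gclm with Srxn1, Sod1 and Gpx1, Srxn1 with Gpx4, and Sod1 with Gpx1 and Gpx4, at r between 0.56 and 0.69. The median r over the 45 pairs was 0.52 with TMM and 0.23 with library size alone, beside -0.00115 and 0.08 over all pairs of the genes tested. With TMM, r reached 0.5 in 51.1% of the pairs against 3.45% of all gene pairs, and with library size alone in 17.8% against 6.13%. Among pairs of genes with a mean of at least 5 CPM, as all members but Nqo1 have, these shares were 5.01% and 8.26%. The deviations of 9 genes, all but Nqo1, also had a negative r with the TMM factor of the library, from -0.83 (Srxn1) to -0.55 (Gclc). Since CPM are divided by this factor, such a relation is partly built in. The deviations of Gpx4 (r = -0.83), Srxn1 (-0.75), Sod1 (-0.68) and Gclm (-0.66) went against the share of mitochondrially encoded counts (adjusted p 0.0019 to 0.0185). Sod2 went with the sum of brown adipocyte markers (r = 0.69, adjusted p = 0.0054) and Nfe2l2 and Sod2 against that of stroma markers (r = -0.58 and -0.53, adjusted p = 0.0125 and 0.0361). Lymphoid markers went against Gclc, Gclm, Srxn1, Sod1 and Gpx4 (r between -0.60 and -0.55, adjusted p 0.0125 to 0.0263), and endothelial markers against Gclm, Gpx1, Srxn1, Txnrd1 and Sod2 (r between -0.62 and -0.51, adjusted p 0.0125 to 0.0455). In all, 26 of the 110 relations passed, 9 of them with the TMM factor. The marker sums were divided by the same TMM factor as the genes, and the lymphoid sum was only 7.63 to 23.4 CPM. How often other genes have such relations was not examined, so they cannot be called particular to these 10. The part of the TMM factor, the mitochondrial share and the markers in the relations between the genes was not tested. Mitochondrially encoded genes removed before scaling left 31 pairs past the test.

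**Figure D4:**
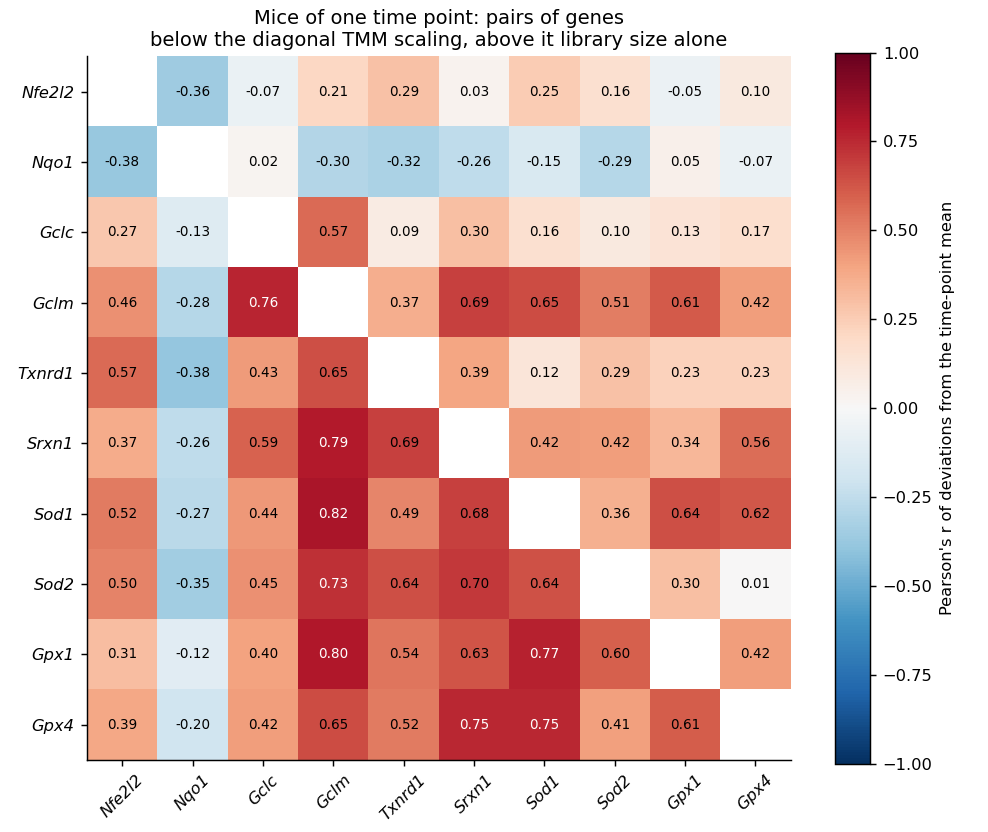
Pearson's r between the deviations of each pair of genes from their time-point means over 32 mice, as colour and number, with TMM scaling below the diagonal and library size alone above it. With TMM scaling the pairs without Nqo1 are positive throughout, with the highest values for Gclm, Srxn1, Sod1 and Gpx1. Above the diagonal most values are smaller.

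Over all 32 libraries, time included, the transcripts most like Nfe2l2 among 10300 genes with a mean of at least 5 CPM were Znfx1 (r = 0.91) and Nolc1 (r = 0.89). For Txnrd1 they were Gspt1 (r = 0.85) and Tuba8 (r = 0.83). Sod2 was most like Ghitm and Acadm (r = 0.92 each), both encoding mitochondrial proteins, Sod1 like Smdt1 and Fth1 (r = 0.92 each), Gpx4 like Ppdpf (r = 0.91) and Eif5a (r = 0.88), and Gpx1 like Echdc2 and C3 (r = 0.84 each). Gclm was most like Twf1 (r = 0.91) and Tgoln1 (r = 0.89), Gclc like Fam3c (r = 0.73) and Ell2 (r = 0.72), Srxn1 like Psmc4 (r = 0.89) and Rmdn3 (r = 0.88), and Nqo1 like Dnase1l1 (r = 0.71) and Smim14 (r = 0.69). These are descriptions over libraries that share lanes and time points.

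The wider pathway was described through lists of further genes, 119 of which were tested. Of these 57 (47.9%) had a 24 h cosine, beside 36.1% of all genes. With lane as a factor 15 of the 119 (12.6%) were called, against 17.2%. Peaks of the 57 lay in the dark phase for 37 and in the light phase for 20. Of the 5602 genes called in the whole table, 2748 peaked in the dark phase. Among the regulators of NRF2, 5 of 14 were called. Mafg, a small MAF partner of NRF2, peaked at ZT 15.7 (SE 0.66 h), beside Nfe2l2, with an amplitude of 0.21 (SE 0.04, adjusted p = 1.9e-04, and 0.0078 beside lane) and went from 47.1 ± 3.29 CPM at ZT6 to 70.9 ± 2.34 CPM at ZT15 (SD, n = 4 each). Nfe2l3, a relative of NRF2, had the opposite timing, with 9.25 ± 0.991 CPM at ZT3 and 0.662 ± 0.549 CPM at ZT15. Gsk3b, a kinase that promotes NRF2 degradation, peaked at ZT 18.2 (adjusted p = 0.0158, and 0.0585 beside lane) and Nfe2l1 at ZT 12.0, the latter with an amplitude of only 0.12 (adjusted p = 0.0244, and 0.496 beside lane). Keap1 itself, the sensor, was not called (amplitude 0.09, SE 0.04, adjusted p = 0.156).

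Of the other NRF2 target genes 16 of 25 (64%) had a cosine, beside 36.1% of all genes, and 2 of 25 (8.0%) were called beside lane, against 17.2%. Osgin1, an oxidative stress-induced growth inhibitor, was highest at ZT18 (5.75 ± 1.72 CPM) and lowest at ZT6 (0.654 ± 0.305 CPM, SD, n = 4 each), a ratio of 8.78, with its peak at ZT 19.2 as for Txnrd1 and an adjusted p of 3.6e-04 beside lane. Me1 and Pgd, which make NADPH and are also lipogenic enzymes, peaked at ZT 0.34 and ZT 22.4 with amplitudes of 0.58 (SE 0.15) and 0.53 (SE 0.15), and neither held beside lane (adjusted p = 0.640 and 0.566). Ptgr1 peaked at ZT 2.2 and lost the call beside lane. Hmox1, the inducible heme oxygenase, had an amplitude of 0.23 (SE 0.07, adjusted p = 0.0190, and 0.611 beside lane). The called genes of this list peaked in the light phase for 6 and in the dark phase for 10.

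In the glutathione list 13 of 22 genes (59.1%) were called, beside 36.1% of all genes. Glrx, a glutaredoxin, was lowest at ZT9 (6.01 ± 1.21 CPM) and highest at ZT21 (18.9 ± 2.30 CPM, SD over 4 mice), with a peak at ZT 22.3 and an adjusted p of 4.6e-12. Gstt2, a glutathione transferase, peaked at ZT 10.0 (amplitude 0.61, SE 0.05, adjusted p = 6.9e-10), Oplah at ZT 11.9 and Gstt1 at ZT 13.3. Beside lane Glrx and Gstt2 kept the call, while Oplah (adjusted p = 0.159) and Gstt1 (0.249) lost it. Of the other glutathione peroxidases 2 of 3 were called by the cosine, Gpx8 and Gpx7, both with a peak in the light phase, and neither held beside lane (adjusted p = 0.114 and 0.690). Around Txnrd1, 3 of 18 genes (16.7%) of the thioredoxin and peroxiredoxin system were called by the cosine, against the same 36.1%, and 5 of 18 by the test of any difference between time points, against 39.8%. Txn1, the substrate of Txnrd1, peaked at ZT 19.8 (amplitude 0.17, SE 0.06, adjusted p = 0.0462), Txnrd3 at ZT 8.6 and Prdx6 at ZT 13.5. Beside lane Txnrd3 kept the call (adjusted p = 0.0166), and Txn1 (0.287) and Prdx6 (0.119) lost it.

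Around Sod1 and Sod2, 1 of 4 genes (25%) was called, where 36.1% of all genes were. It was Ccs, the copper chaperone of Sod1, with an amplitude of 0.16 (SE 0.03) and a peak at ZT 13.3, which did not hold beside lane (adjusted p = 0.240). Of the NADPH supply list 7 of 16 (43.8%, near the share of all genes) were called, with Mthfd2 peaking at ZT 2.6 and Aldh1l1 at ZT 15.4 beside Me1 and Pgd. Beside lane the adjusted p of Mthfd2 was 0.137 and that of Aldh1l1 0.0530. Txnrd1, Gpx1 and Gpx4 are selenoproteins, and of 18 further genes for selenoproteins or their synthesis 10 (55.6%) were called. Of these 7 peaked in the dark and 3 in the light phase. Those with the largest amplitudes were Sepsecs (ZT 14.9), Secisbp2 (ZT 16.9), Selenos (ZT 8.2) and Sephs2 (ZT 15.7), of which Sepsecs lost the call beside lane (adjusted p = 0.343). Among 11 ferroptosis genes 5 (45.5%) were called and none held beside lane. They were led by Hmox1, followed by Ncoa4 (peak at ZT 16.2), Ftl1 (ZT 9.4) and Acsl4 (ZT 22.49).

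**Figure D5:**
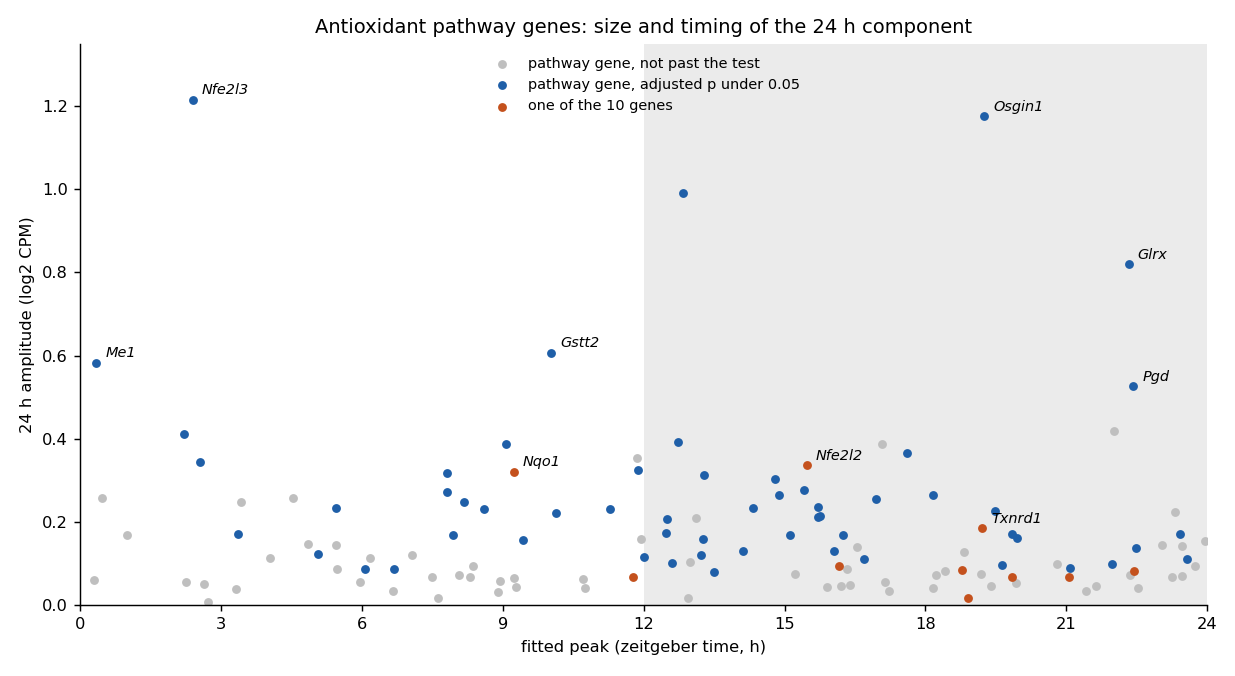
Amplitude of the 24 h cosine (log2 CPM, y axis) against the fitted peak (Zeitgeber hours, x axis) for each tested pathway gene, in blue with adjusted p under 0.05 and in grey otherwise, and for the 10 genes in orange. Dark phase shaded. Nfe2l3 (1.22) and Osgin1 (1.18) have the largest amplitudes of the named genes, with peaks in the light and in the dark phase, and the 10 genes lie at 0.34 or lower.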

How the data were processed

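Stranded 100 bp paired-end RNA-seq libraries of 32 mice were deposited as raw read counts per Ensembl gene. The authors mapped reads to mm10 with GSNAP and counted them with HTSeq (0.6.1). The counts carried no normalization. Gene coordinates, lengths and overlaps come from GENCODE (GRCm38), a release other than the one counted with.

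Genes were filtered by filterByExpr (time point as group), leaving 15505, and scaled by TMM in edgeR (4.0.16, R 4.3.3). The quasi-likelihood tests of edgeR used all libraries, or those of 1 lane, with BH adjustment over all genes and a threshold of 0.05. Amplitudes are from least squares on log2 CPM (prior count 2). JTK was rebuilt with an exact null over periods of 21 and 24 h (15 templates), since the original program was not at hand, so that its P values can differ slightly from the published tool. Scripts were tested on simulated data. Relations used log2(CPM + 0.1).

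The 10 genes, the gene lists and the tests were chosen with earlier results of these data known. Named are all 10 genes, up to 4 called genes per list with the largest amplitude and a mean of at least 1 CPM, and the 2 most alike genes of each member. Keap1 was named beyond this rule, after its values were seen. The lowest mean chi-square per gene between mice of a time point was 7.56 over 48 pairs, so no library was counted as a duplicate. Alternatives were DESeq2 (1.42.0) size factors or its likelihood ratio test, library size alone, removal of mitochondrially encoded genes, no filter, a replicate block, other prior counts and each library left out.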

Additional observations from a re-analysis of the deposited data

Results flagged for a closer look

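Over the 80 groups of 4 mice (10 genes at 8 time points), 1 mouse stood apart from its mates by its gap to the nearest of them relative to the range. This was Nfe2l2 at ZT18 in replicate 4, with 84.6 CPM where the other 3 mice had 95.0 to 96.7 CPM. Chance gives such a gap in about 1 of 20 groups, or 4 of 80. The library is among the 5 with more than 5000 CPM of skeletal muscle markers, whose part in the value was not tested.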

How the results depend on the processing

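Scaling by DESeq2 size factors or without mitochondrially encoded genes moved no count of the 10 genes beyond 1.5 times, but each ended the call of Gclc between time points (adjusted p = 0.0576 and 0.0552). With library size alone the genes that differed between time points went from 3 to 5, those that differed over a 3 h step from 1 to 2, and the pairs that varied together from 27 to 6. DESeq2's likelihood ratio test called 5 genes between time points. Without the 5 muscle-rich libraries, an alternative chosen after seeing the data, 1 gene (Nfe2l2) differed within a lane in place of 2. Leaving out each library in turn gave 2 to 3 genes with a cosine, 2 to 4 past JTK, 2 to 5 that differed between time points, 1 to 4 within a lane, 1 to 4 over a step and 0 to 1 with a 12 h component, and always 2 with a cosine beside lane. The high counts within a lane and over a step came without ZT0 replicate 4, those between time points and of the 12 h component without ZT9 replicate 3. Fitted on the 8 libraries of a step alone, none of the 3 steps of Nfe2l2 called above passed (adjusted p 0.0778, 0.106 and 0.129, with fewer samples). That from ZT18 to ZT21 did (-0.39, adjusted p = 0.0386), which is the lane 4 test given above and not a further one. Without a filter on low counts Nqo1 had adjusted p = 0.0702 for the cosine.

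Replicate numbers recur at each time point, but they did not pair the samples. Deviations of libraries with the same number had a mean correlation of -0.03, over 0.1 in 49 of 112 pairs, and 8 of 32 libraries correlated best with their own number. With the replicate number as a block, 2 genes had a cosine (Nqo1 at adjusted p = 0.0544), 4 differed between time points (Srxn1 and Gpx4 gained, at 0.0462 and 0.0449, and Gclc lost), 2 within a lane, 1 over a step (ZT18 against ZT15 at 0.0533 for Nfe2l2), 2 had a cosine beside lane, 0 had a 12 h component and 3 passed JTK. Precision is limited by 4 mice per time point and, for Nqo1, by 13 to 57 reads per library.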
